A study of Mus musculus with 14 samples.

Results

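The subject is a set of 10 genes of the secretory airway epithelium: Scgb1a1, Scgb3a1, Scgb3a2, Cyp2f2, Cbr2, Aldh1a1, Muc5b, Bpifa1, Reg3g and Pigr. They were chosen by name with earlier results of these data known, and each had 1 of the 21212 probe sets on the arrays. The arrays measured total RNA of lungs dissected at postnatal day 6 from C57BL/6J mice bred by crossing heterozygotes. Homozygous Atxn1L knockouts (Atxn1L -/-, n = 4) were set against their own wild types (n = 4), and Atxn1 knockouts (Atxn1 -/-, n = 3) against theirs (n = 3). The labels name no tissue-specific driver for either deletion and give no litter or sex, so the p-values measure only the spread between these samples. Ataxin-1 and its relative ataxin-1-like bind the transcriptional repressor Capicua, and the comparisons ask which lung transcripts change without either protein.

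Club cells are dome-shaped secretory cells of the conducting airways. They release secretoglobins onto the airway surface, oxidise inhaled chemicals and act as progenitors of other airway cells. Related secretory cells of the larger airways and submucosal glands make mucins, BPI-fold proteins and antibacterial lectins, and carry antibodies across the epithelium. In whole lung, fewer cells of a type and less RNA per cell cannot be told apart.

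None of the 10 genes differed in either knockout by a test that passed. The genes of the club cell core (Scgb1a1, Cyp2f2 and Cbr2) differed little from array to array, but their probe sets lie near the top of the scale, where arrays can compress differences, so how far their transcripts varied cannot be read from this. Scgb3a1 and Reg3g were among the most variable probe sets of the experiment, and with Muc5b they were high together on 3 arrays of different genotypes. On the log2 scale Scgb3a1 spanned 2.63 between the lowest and highest of the 8 arrays with the Atxn1L knockouts, a 6.2-fold range, and 3.19 over the other 6 arrays, a 9.1-fold range. For Cbr2 the ranges were 0.10 and 0.12.

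Promoter sequences are shown for the pair that varied most, Scgb3a1 and Reg3g, and for Cyp2f2 and Cbr2, which varied least among the genes with a sequence at hand. Each is the 250 bases before the start of the RefSeq transcript in GRCm38.p6, written 5′ to 3′ along the gene's strand, with motif matches in capitals. The Scgb3a1 promoter lies on the plus strand at chr11:49663345-49663594, Reg3g on the minus strand at chr6:78468875-78469124, Cyp2f2 on the plus strand at chr7:27119705-27119954 and Cbr2 on the minus strand at chr11:120732022-120732271.
Scgb3a1: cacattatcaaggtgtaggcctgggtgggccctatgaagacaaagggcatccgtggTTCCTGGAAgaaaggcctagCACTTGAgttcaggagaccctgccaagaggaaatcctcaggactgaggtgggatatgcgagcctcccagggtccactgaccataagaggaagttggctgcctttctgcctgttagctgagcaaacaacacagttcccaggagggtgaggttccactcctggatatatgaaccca
Reg3g: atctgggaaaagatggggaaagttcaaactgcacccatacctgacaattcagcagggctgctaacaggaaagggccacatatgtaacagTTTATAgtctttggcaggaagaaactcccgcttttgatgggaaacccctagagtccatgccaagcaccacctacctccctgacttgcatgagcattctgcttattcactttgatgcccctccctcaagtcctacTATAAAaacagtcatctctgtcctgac
Cyp2f2: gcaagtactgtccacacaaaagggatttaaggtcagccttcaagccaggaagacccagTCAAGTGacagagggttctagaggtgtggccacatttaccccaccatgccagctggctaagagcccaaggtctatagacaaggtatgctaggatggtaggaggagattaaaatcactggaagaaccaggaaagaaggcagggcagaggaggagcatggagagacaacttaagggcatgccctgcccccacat
Cbr2: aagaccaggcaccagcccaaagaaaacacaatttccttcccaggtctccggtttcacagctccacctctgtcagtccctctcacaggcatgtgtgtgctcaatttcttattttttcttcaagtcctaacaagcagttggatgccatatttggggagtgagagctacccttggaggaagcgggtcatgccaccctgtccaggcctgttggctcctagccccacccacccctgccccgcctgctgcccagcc

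Both strands were searched for 7 motifs, and no matches overlapped. NKX2-1, the homeodomain factor of lung epithelium, has the motif TCAAGTG, present in 2.68% of 32851 promoters of this length. It was found in Cyp2f2, 192 to 186 bases before the start, and on the opposite strand in Scgb3a1, 174 to 168 bases before the start. The STAT motif TTCCNGGAA, present in 0.913% of promoters, was found in Scgb3a1 194 to 186 bases before the start. The TATA box TATAAA, present in 12.4%, was found in Reg3g 27 to 22 bases before the start and, on the opposite strand, 161 to 156 bases before it. Scgb3a1 and Reg3g held none of the searched motifs in common.

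The other motifs were those of Capicua (TGAATGAA, TGAATGGA, TCAATGAA or TCAATGGA, in 3.19% of promoters), FOXA (TGTTTAC, in 3.17%), AP-1 (TGANTCA, in 6.75%) and C/EBP (TTGCNNAA, in 9.56%). The table held promoters of 7 of the 10 genes: the 4 shown and those of Aldh1a1 (with a pair of starts), Bpifa1 and Pigr. No Capicua or FOXA match lay in these windows. An AP-1 match was found in Aldh1a1, 57 to 51 bases before its first start, and in Bpifa1, 155 to 149 bases before the start. Aldh1a1 also held a C/EBP match on the opposite strand, 13 to 6 bases before its first start, and Bpifa1 a TATA box 29 to 24 bases before its start. A match describes these letters only.

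The values are log2 levels after RMA, which summarises the probes of a gene. The Atxn1L and Atxn1 arrays were normalized apart, with median levels of 8.44 to 8.53 and 9.21 to 9.24, so levels were compared only within a set of arrays. Levels of different probe sets were compared only to place a gene on the scale of its arrays, not as amounts of transcript. Each array correlated with its closest partner at r of 0.994 to 0.998 over all probe sets. In the Atxn1L knockouts the deleted gene stood at 6.86 ± 0.16 (SD, n = 4) against 9.45 ± 0.12 (SD, n = 4), which was 5.99-fold lower (limma adjusted p = 1.18e-06). In the Atxn1 knockouts the Atxn1 probe set stood at 11.02 ± 0.02 (SD, n = 3) against 11.01 ± 0.11 (SD, n = 3). Its probes may lie outside the deleted part, so it does not check that label. Cic, which encodes Capicua, differed by 0.14 in the Atxn1L knockouts and 0.05 in the Atxn1 knockouts (limma adjusted p = 0.527 and 1.000).

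Scgb1a1 (Entrez 22287) encodes the main secretoglobin of club cells, once called Clara cell secretory protein. It stood at 13.55, 13.58, 13.55 and 13.67 on the Atxn1L knockout arrays, replicates 1 to 4. The wild types stood at 13.61, 13.64, 13.59 and 13.61. Knockout 4 was above every wild type and the other 3 knockouts were below them all, within a whole range of 0.12. The difference, knockout minus wild type, was -0.02 (SE 0.05, 95% interval -0.13 to 0.08, limma adjusted p = 0.937). In the Atxn1 set the knockouts stood at 14.02, 14 and 14.04 and the wild types at 13.91, 14.21 and 14.04. All knockouts lay inside the wild-type range, and the difference was -0.03 (SE 0.08, 95% interval -0.22 to 0.15). The highest probe set on an array reached 14.07 to 14.12 among the Atxn1L arrays and 14.37 to 14.45 among the Atxn1 arrays, so Scgb1a1 lies near the top of the scale.

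Cyp2f2 (Entrez 13107) encodes the cytochrome P450 by which club cells oxidise naphthalene and similar compounds. The Atxn1L knockouts stood at 13.22, 13.28, 13.25 and 13.19, and their wild types at 13.21, 12.99, 13.18 and 13.07. Of the 4 knockouts, 3 were above every wild type, and knockout 4 lay between wild types 1 and 3. The difference of 0.12 (SE 0.06, 95% interval -0.01 to 0.25) did not pass (limma unadjusted p = 0.0629, adjusted p = 0.613, exact two-sided permutation p = 0.0571). Levels in the Atxn1 set were 13.43, 13.59 and 13.48 in knockouts and 13.51, 13.57 and 13.47 in wild types, a difference of -0.02 (SE 0.06).

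Cbr2 (Entrez 12409) encodes a lung carbonyl reductase. Its levels had the smallest spread of the 10 genes, at 13.58 on 3 Atxn1L knockout arrays and 13.49 on the fourth one, with wild types at 13.58, 13.48, 13.56 and 13.51. The groups overlapped, with a difference of 0.02 (SE 0.05, 95% interval -0.08 to 0.13). The Atxn1 knockouts stood at 13.67, 13.75 and 13.79 around wild types at 13.71, 13.73 and 13.72, a difference of 0.01 (SE 0.05). Like Scgb1a1, Cyp2f2 and Cbr2 lie near the top of the scale, above 99.7% or more of probe sets in both sets.

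Scgb3a2 (Entrez 117158) encodes a second secretoglobin of small airways. The Atxn1L knockouts stood at 9.49, 9.34, 9.24 and 9.27 and the wild types at 9.14, 9.36, 9.78 and 9.12. Wild type 3 was the highest array, and all 4 knockouts lay inside the wild-type range. The difference was -0.01 (SE 0.13, 95% interval -0.31 to 0.29). For Atxn1 the knockouts stood at 10.97, 11.24 and 11.02 and the wild types at 11.07, 11.24 and 11.17, a difference of -0.09 (SE 0.08).

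Aldh1a1 (Entrez 11668) encodes a retinaldehyde dehydrogenase, and its close paralog Aldh1a7 may share signal with its probes. The Atxn1L knockouts stood at 11.61, 11.52, 11.37 and 11.24 and the wild types at 11.42, 11.23, 11.40 and 11.13. Knockouts 1 and 2 exceeded every wild type and the other 2 lay among them. The difference was 0.14 (SE 0.09, 95% interval -0.06 to 0.35, limma adjusted p = 0.729). For Atxn1 the knockouts stood at 11.73, 11.99 and 11.90 and the wild types at 11.92, 11.89 and 12.27. Wild type 3 was the highest and knockout 1 the lowest, and the difference was -0.15 (SE 0.12, 95% interval -0.43 to 0.12), or -0.03 (SE 0.09) without wild type 3.

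Scgb3a1 (Entrez 68662) encodes a secretoglobin of the larger airways and glands. It stood at 11.89 in Atxn1L knockout 1, and at 9.90, 9.51 and 10.04 in the other knockouts. Among their wild types, replicate 3 was at 12.15 and the others at 9.74, 10.49 and 10.35. One array of each genotype therefore stood above all the rest. The group means were 10.34 ± 1.06 and 10.68 ± 1.03 (SD, n = 4 each), a difference of -0.35 (SE 0.58, 95% interval -1.63 to 0.94, limma adjusted p = 0.925). The Atxn1 knockouts stood at 9.06, 10.03 and 10.21, and their wild types at 10.79, 9.40 and 12.25. Wild type 3 was highest, and wild type 2 was below 2 of the 3 knockouts. Wild types were on average 2.06-fold higher, a difference of -1.04 (SE 0.68, 95% interval -2.65 to 0.57, limma unadjusted p = 0.169, adjusted p = 1.000, exact two-sided permutation p = 0.40). Without wild type 3 it was -0.33 (SE 0.50), and without wild type 2 it was -1.75 (SE 0.49, adjusted p = 0.862).

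Reg3g (Entrez 19695) encodes a secreted lectin that kills Gram-positive bacteria. Atxn1L knockout 1 stood at 10.01 and the other knockouts at 8.07, 7.12 and 7.67. Wild type 3 stood at 9.59 and the other wild types at 7.41, 8.06 and 7.77. The same arrays were high as for Scgb3a1, and the group means of 8.22 ± 1.25 and 8.21 ± 0.96 (SD, n = 4 each) differed by 0.01 (SE 0.62, 95% interval -1.37 to 1.38). The difference was -0.59 (SE 0.45) without knockout 1 and 0.47 (SE 0.57) without wild type 3. In the Atxn1 set the knockouts stood at 6.88, 7.78 and 7.90 and the wild types at 7.88, 7.38 and 10.23. Wild type 3 was again highest and the remaining arrays overlapped. The difference was -0.98 (SE 0.71, 95% interval -2.66 to 0.70, limma adjusted p = 1.000, exact two-sided permutation p = 0.50), and -0.12 (SE 0.33) without wild type 3 and -1.54 (SE 0.67, adjusted p = 0.862) without wild type 2.

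Muc5b (Entrez 74180) encodes the gel-forming mucin of normal airways. It stood at 8.67 in Atxn1L knockout 1 and at 7.64, 7.50 and 7.59 in the others. Wild type 3 stood at 8.76, and the other wild types at 7.66, 7.85 and 7.83. The remaining 3 knockouts were below all 4 wild types, the closest at 7.64 against 7.66. The difference was -0.18 (SE 0.29, 95% interval -0.82 to 0.47), and without both high arrays it was -0.20 (SE 0.07, limma unadjusted p = 0.0211, adjusted p = 0.622). In the Atxn1 set the knockouts stood at 8.30, 8.40 and 8.25 and the wild types at 8.72, 8.16 and 9.16. All knockouts lay between wild type 2 and wild type 1, and the difference of -0.36 (SE 0.23, 95% interval -0.90 to 0.17) was -0.12 (SE 0.16) without wild type 3 and -0.62 (SE 0.13, limma unadjusted p = 0.00261, adjusted p = 0.862) without wild type 2.

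Bpifa1 (Entrez 18843) encodes an antimicrobial BPI-fold protein of the upper airways, and its probe set was dim, above 21.9% of all probe sets on the Atxn1L arrays and 19.7% on the Atxn1 arrays. The Atxn1L knockouts stood at 6.60, 6.65, 6.60 and 6.26 and the wild types at 6.36, 6.73, 7.74 and 6.72. Wild type 3 stood above all other arrays, and the difference was -0.36 (SE 0.24, 95% interval -0.91 to 0.18, limma adjusted p = 0.748). It was -0.08 (SE 0.12) without wild type 3. The Atxn1 knockouts stood at 7.27, 7.28 and 7.45 and the wild types at 7.95, 7.16 and 7.67. Here wild type 1 was the highest, ahead of wild type 3, and the difference was -0.26 (SE 0.19). It was -0.08 (SE 0.15) without wild type 1 and -0.48 (SE 0.10, limma unadjusted p = 0.00301, adjusted p = 0.862) without wild type 2. On wild type 1 of the Atxn1 set, 41% of all probe sets had their highest level of the 6 arrays.

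Pigr (Entrez 18703) encodes the receptor that carries IgA across the epithelium into the airway lumen. The Atxn1L knockouts stood at 8.47, 7.19, 7.32 and 7.08, and the wild types at 6.76, 7.12, 7.16 and 6.61. Of the 4 knockouts, 3 were above every wild type, the closest at 7.19 against 7.16, and knockout 4 lay among the wild types. Means were 7.52 ± 0.64 and 6.91 ± 0.27 (SD, n = 4 each). The knockouts were 1.52-fold higher, a difference of 0.60 (SE 0.27, 95% interval -0.01 to 1.21), which did not pass (limma unadjusted p = 0.0525, adjusted p = 0.59, exact two-sided permutation p = 0.114). Without knockout 1 it was 0.29 (SE 0.13, adjusted p = 0.645). For Atxn1 the knockouts stood at 7.76, 7.85 and 7.71 and the wild types at 7.78, 7.59 and 7.77, a difference of 0.06 (SE 0.07).

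**Figure D1:**
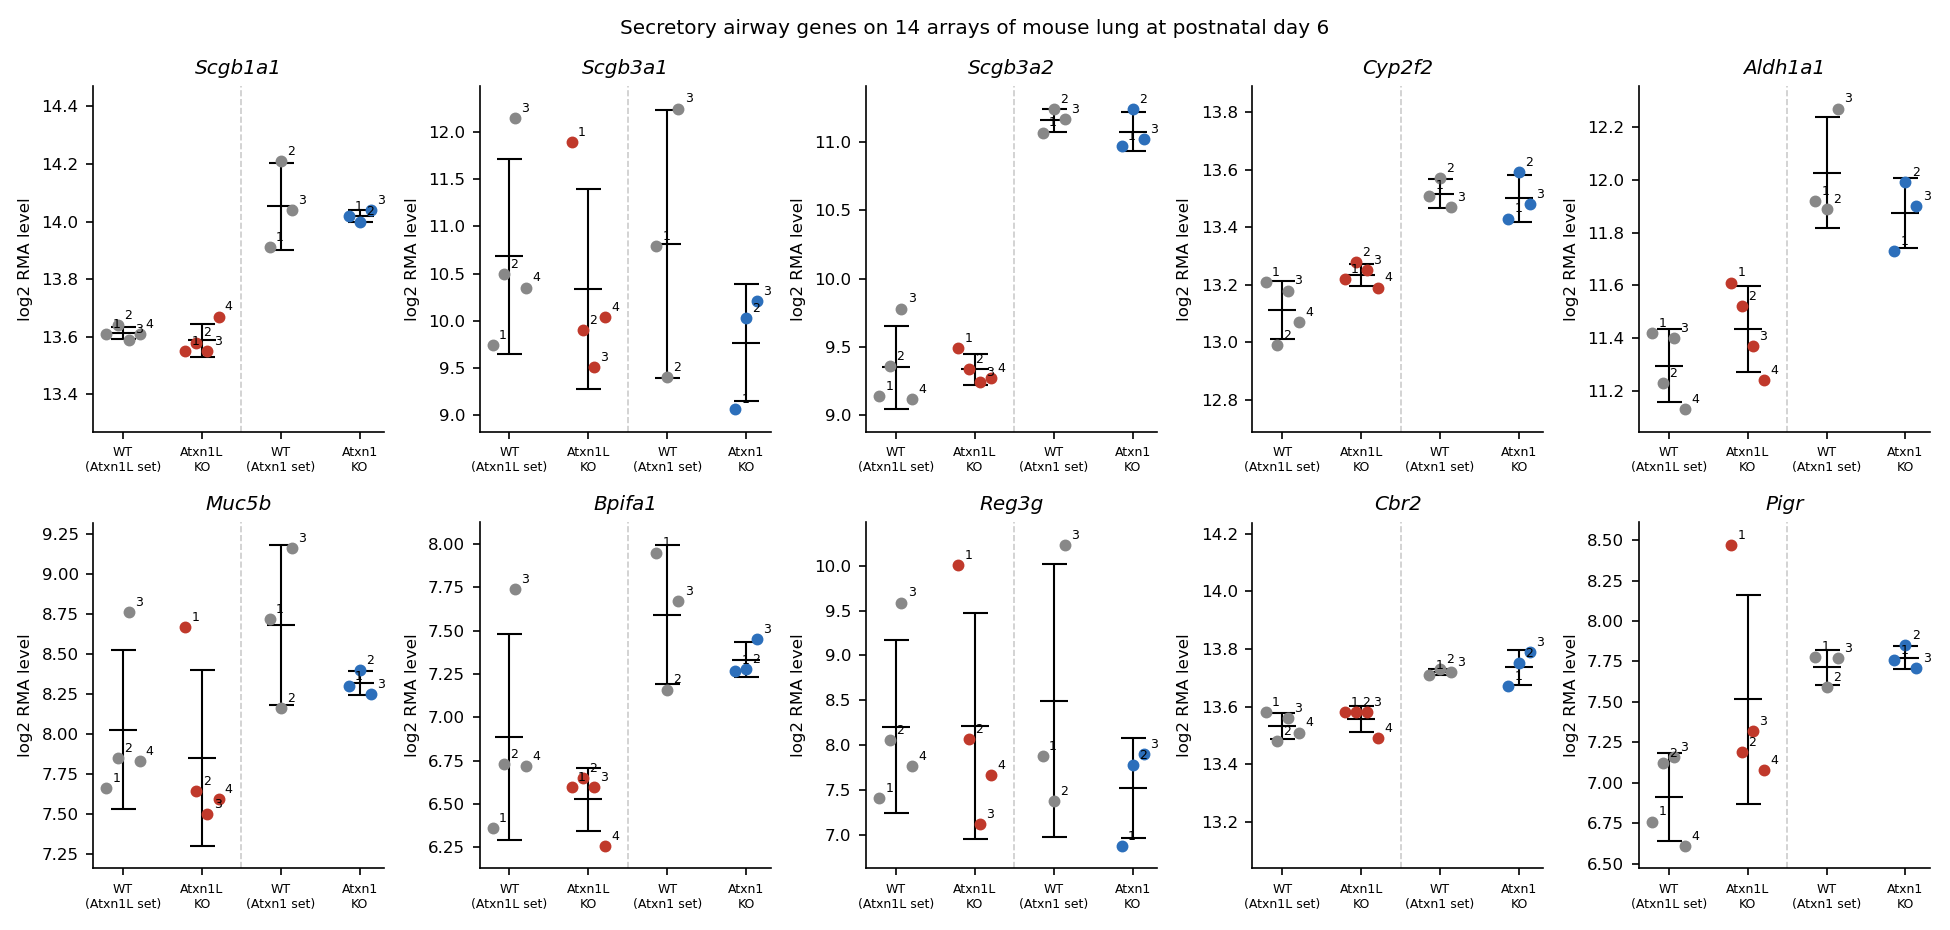
Log2 RMA level of each gene on the 14 arrays, by group, with replicate numbers beside the points; bars give the mean and SD of a group (n = 4 in the Atxn1L set, n = 3 in the Atxn1 set), and the vertical scale differs between panels. Scgb3a1, Reg3g and Muc5b were highest on knockout 1 and wild type 3 of the Atxn1L set and on wild type 3 of the Atxn1 set, while Cbr2 stayed between 13.48 and 13.79.

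At a limma adjusted p under 0.05, 0 of the 10 genes differed in the Atxn1L knockouts, where 0.0424% of all probe sets passed (9 of 21212). In the Atxn1 knockouts 0 of 10 passed, where 0% of all probe sets did. At an unadjusted p under 0.05 the counts were also 0 of 10 in both, beside 8.5% of all probe sets (1802) in the Atxn1L set and 1.22% (258) in the Atxn1 set. Knockouts and wild types did not separate fully for any of the 10 genes in either set, beside 5.32% and 4.75% of all probe sets with no overlap. The exact permutation test cannot go below 0.0286 with 4 against 4 arrays or 0.1 with 3 against 3.

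In the Atxn1L knockouts 5 of the 10 differences were above 0 and their median was 0.00, beside 51.3% above 0 over all probe sets. In the Atxn1 knockouts 2 of 10 were above 0, Cbr2 and Pigr, and the median was -0.12, beside 47.3% and a median of 0.00. A mean difference of 1.5-fold or more was reached by Pigr in the Atxn1L set (0.471% of all probe sets) and by Scgb3a1 and Reg3g in the Atxn1 set (0.0943%). The widest intervals belonged to those last 2 genes: in the Atxn1 set they allow levels in knockouts from 6.29-fold lower to 1.48-fold higher for Scgb3a1, and from 6.33-fold lower to 1.62-fold higher for Reg3g.

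**Figure D2:**
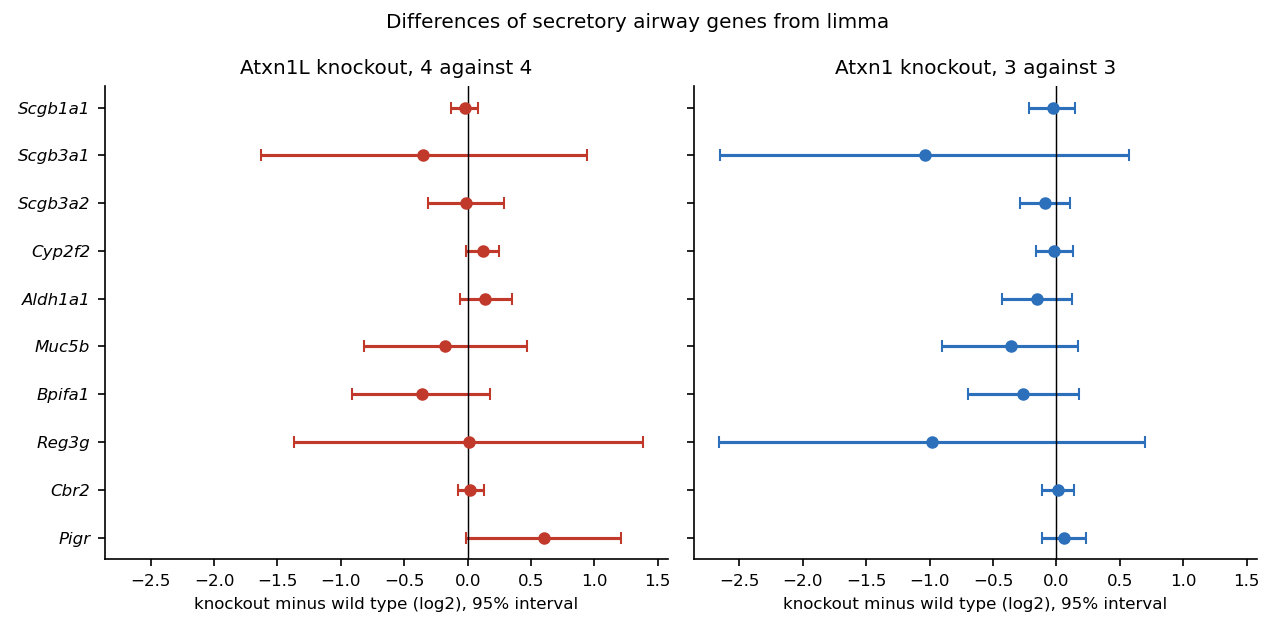
Knockout minus wild type for each gene on the log2 scale, with 95% intervals from limma, for the Atxn1L knockouts (4 against 4) and the Atxn1 knockouts (3 against 3). Every interval includes 0, and those of Scgb3a1 and Reg3g are the widest in both panels.

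The effects of the 2 knockouts were set against each other in a limma fit of all 14 arrays. Of the 10 genes, 0 differed between the knockouts (all adjusted p = 1.000), beside 0.00943% of all probe sets. The difference of the effects, Atxn1L minus Atxn1, was 0.54 for Pigr (SE 0.36, 95% interval -0.23 to 1.31). For Aldh1a1 it was 0.30 (SE 0.16, 95% interval -0.04 to 0.64, unadjusted p = 0.0785). For Reg3g it was 0.99 (SE 1.04, 95% interval -1.25 to 3.23) and for Scgb3a1 0.70 (SE 0.98, 95% interval -1.42 to 2.81). For Cbr2 it was 0.01 (SE 0.06, 95% interval -0.13 to 0.15), and for Scgb1a1 0.01 (SE 0.08, 95% interval -0.17 to 0.19).

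The spread between arrays of a group set these genes apart from each other. The SD within groups, pooled over the 4 groups, was 1.13 for Reg3g and 1.07 for Scgb3a1, ranks 6 and 11 of 21212 probe sets. It was 0.46 for Muc5b (rank 101), 0.39 for Bpifa1 (rank 177) and 0.39 for Pigr (rank 178). Scgb3a2 had 0.20 and Aldh1a1 0.16, and the median of all probe sets was 0.10. Scgb1a1 and Cyp2f2 had 0.07 and Cbr2 0.04, below that median but measured 0.24 to 1.09 under the highest probe set of an array, so a small SD there is not a measure of steady transcript levels.

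**Figure D3:**
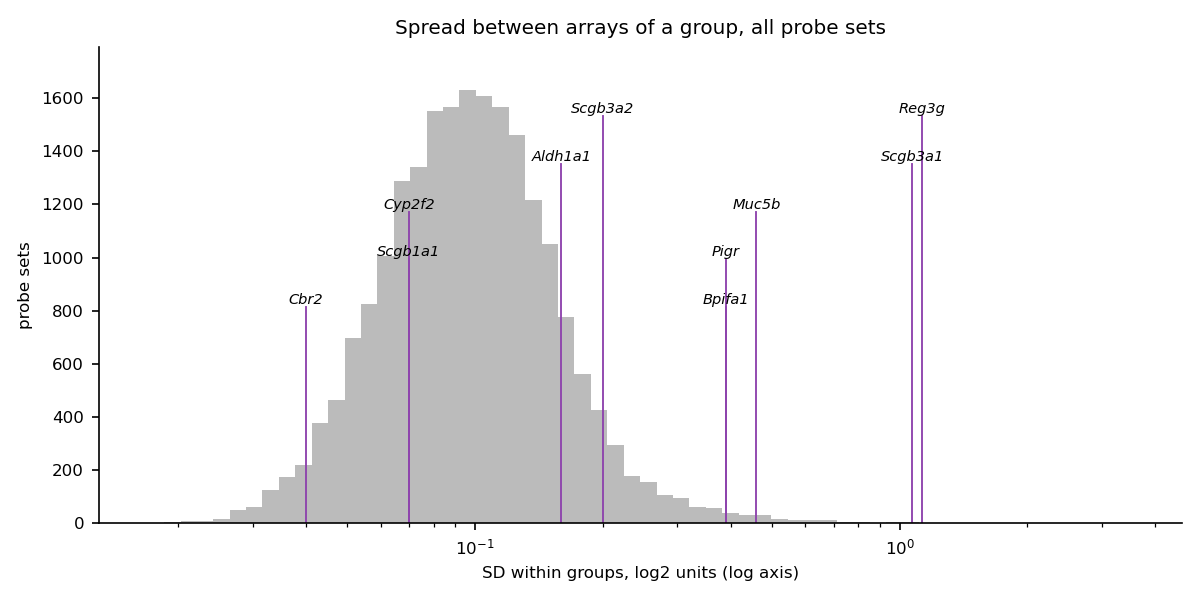
Histogram of the SD within groups for all 21212 probe sets (horizontal log axis, log2 units), with a vertical line at the SD of each of the 10 genes. Cbr2, Cyp2f2 and Scgb1a1 lie left of the median of 0.10, while Reg3g (1.13) and Scgb3a1 (1.07) lie in the right tail.

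Deviations from the group mean over 14 arrays were correlated between genes as a description; the arrays of a set share their normalization. Scgb3a1 and Reg3g had a Pearson r of 0.97 (Spearman rho 0.93), with 0.98 in the Atxn1L set and 0.95 in the Atxn1 set. Scgb3a1 and Muc5b had 0.94 (rho 0.90), and Muc5b and Reg3g 0.92 (rho 0.82). Without the 2 arrays farthest from the median of the first gene of a pair these were 0.94, 0.91 and 0.86. Without the 3 arrays on which the genes were highest they were 0.84, 0.77 and 0.52 over 11 arrays, so the link of Muc5b with Reg3g rests largely on those arrays. Without them the SD within groups was 0.45 for Reg3g, 0.56 for Scgb3a1 and 0.17 for Muc5b.

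These 3 were the pairs with r over 0.8 among 45, and the median r was 0.35. Cyp2f2 and Cbr2 had 0.71 (rho 0.67) and 0.75 without the 3 arrays, with 0.87 in the Atxn1L set and 0.45 in the Atxn1 set. Both have a small SD near the top of the scale, so this r cannot be read as a link of their transcripts. Muc5b and Pigr had 0.78, but 0.37 without the 3 arrays. Scgb1a1 had an r of -0.57 with Bpifa1, -0.45 with Muc5b and -0.41 with Scgb3a1. Without its 2 farthest arrays, Atxn1 wild types 2 and 1, these were -0.41, -0.46 and -0.32. Without the 3 arrays high for the trio they were -0.81, -0.79 and -0.49. With Bpifa1, r was -0.93 in the Atxn1 set and -0.45 in the Atxn1L set. Scgb1a1 has a small SD near the top of the scale, so these values cannot be read as opposite changes of transcripts.

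**Figure D4:**
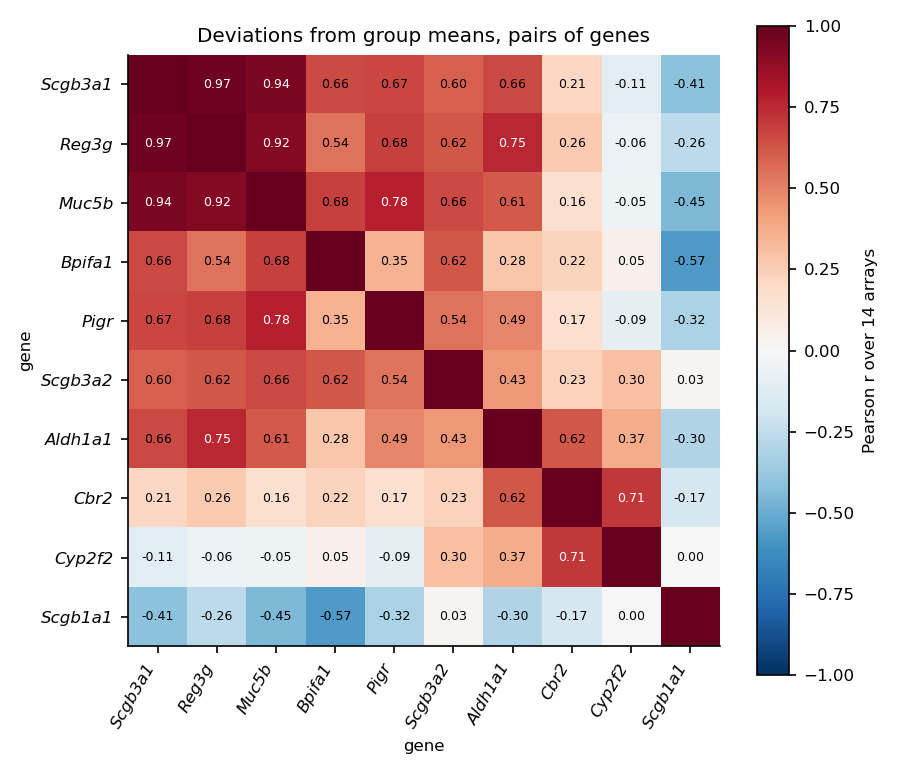
Pearson r between pairs of the 10 genes, from deviations of each array from its group mean over 14 arrays (no test). Scgb3a1, Reg3g and Muc5b form a block of r from 0.92 to 0.97. Cyp2f2 and Cbr2 share 0.71 (0.87 in the Atxn1L set and 0.45 in the Atxn1 set), and Scgb1a1 has its lowest r, -0.57, with Bpifa1.

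The arrays high for this trio were 1 knockout and 2 wild types, with replicates 1, 3 and 3. They were singled out by these values, so what follows describes each array against the mean of the other arrays of its set, with no test. Atxn1L knockout 1 exceeded it by 1.58 for Scgb3a1, 2.05 for Reg3g and 0.84 for Muc5b, ranks 43, 20 and 150 among all probe sets on that array. Atxn1L wild type 3 exceeded it by 1.87, 1.57 and 0.94, ranks 2, 3 and 11, and by 1.18 for Bpifa1. Atxn1 wild type 3 exceeded it by 2.35, 2.67 and 0.80, ranks 13, 9 and 100.

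The mean of the 35 other secretory airway genes departed from the other arrays by 0.32, 0.09 and 0.17 in the same order, with 15, 10 and 11 of the 35 highest there, beside 20.2%, 16.1% and 12% of all probe sets. Members differed, and those that follow were chosen after their values were seen. Bpifb1, a BPI-fold protein of goblet and gland cells, exceeded the other arrays by 1.13, 1.19 and 0.99. Agr2, a disulfide isomerase needed for mucin folding, exceeded them by 0.60, 0.44 and 0.31. The trefoil peptide Tff2 had 0.37, 0.46 and 0.19. The gel-forming mucin Muc5ac, which marks goblet cells, had 0.19, 0.09 and -0.02. Ltf, which encodes lactoferrin, had 2.02, -0.84 and 1.46, and Hp, which encodes haptoglobin, 0.60, -0.24 and 0.32. Slc26a4, an anion exchanger, had 1.1, -0.23 and -0.06, and Cyp4b1, a lung P450, -0.40, 0.05 and -0.05. Scgb1a1 had -0.06, -0.01 and 0.00, and Cyp2f2 0.05, 0.00 and -0.05.

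Markers of other cells moved with these arrays in different ways. The mean of 12 neutrophil markers was 9.87 on Atxn1L knockout 1, against 7.70 to 8.59 on the other arrays, with 12 of 12 markers highest there. It was 10.39 on Atxn1 wild type 3, against 8.56 to 9.06, with 10 of 12 highest there. On Atxn1L wild type 3 it was 7.79, with 7.70 on the lowest array, and departed from the mean of the others by -0.69, with 0 of 12 highest, while Scgb3a1 had its highest level of the set there. The mean of 12 pan-epithelial markers departed from the other arrays by 0.11, -0.07 and 0.02 on the 3 arrays. That of 8 heart muscle markers departed by -0.18, 0.65 and 0.67, and that of 7 goblet cell markers by 0.25, 0.27 and 0.05. These goblet cell markers are all among the other secretory airway genes above, so they are not a separate readout.

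Xist, the transcript of the inactive X chromosome, stood at 7.04, 13.18, 13.09 and 13.24 on Atxn1L knockouts 1 to 4. Their wild types stood at 6.32, 6.59, 13.25 and 13.29. The Atxn1 knockouts stood at 6.83, 12.97 and 13.07, and their wild types at 6.89, 6.94 and 13.04. High and low levels were therefore not balanced between knockouts and wild types in either set. Among the arrays high for the trio, Atxn1L knockout 1 was low for Xist, while both arrays of wild type 3 were high. The parts of neutrophil, heart muscle and sex differences in the array-to-array values were not tested. Pigr exceeded the other arrays by 1.43 on Atxn1L knockout 1, but had -0.06 and 0.03 on the other 2 arrays. On Atxn1L knockout 1, S100a8, Saa3 and Ltf, chosen after their values were seen, exceeded the others by 2.71, 3.92 and 2.02. Of these, S100a8 and Ltf are also neutrophil markers. Cxcl1, Nos2 and Ccl20 had 0.01, -0.02 and -0.03 there. Of 24 genes of immunoglobulin transport and mucosal defence, 13 were highest on that array, beside 20.2% of all probe sets. The 24 include Pigr and Bpifa1, the neutrophil markers S100a8, S100a9, Camp and Ltf, and Reg3g, whose level helped to single out that array. They are therefore not a separate readout. The part of that array's immune markers in the Pigr value was not tested. Without the array the Pigr difference, Atxn1L knockout minus wild type, was 0.29. On that array 11 of 12 macrophage markers were also highest.

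**Figure D5:**
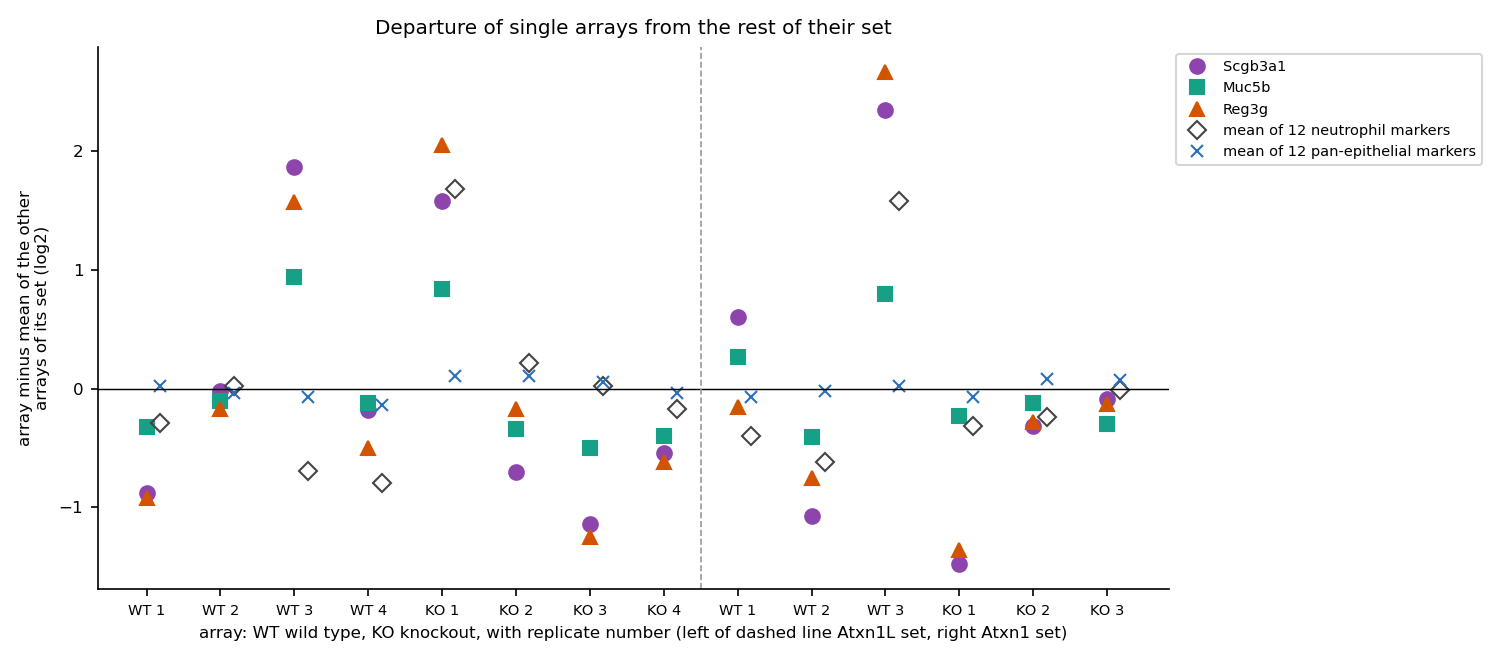
Each array minus the mean of the other arrays of its set (log2) for Scgb3a1, Muc5b and Reg3g, with the mean of 12 neutrophil markers (open diamonds) and of 12 pan-epithelial markers (crosses). The trio is high on wild type 3 and knockout 1 of the Atxn1L set and on wild type 3 of the Atxn1 set; neutrophil markers are high on the last 2 of these (1.68 and 1.58) and low on the first (-0.69).

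The probe sets most like each gene were ranked by r of the deviations from group means over 14 arrays. For Scgb3a1 they were Reg3g (0.97), Muc5b (0.94) and Agr2 (0.93). For Muc5b they were Bpifb1, Scgb3a1 and Agr2, each at 0.94, and for Reg3g they were Scgb3a1 (0.97), Aoc1 (0.94), a diamine oxidase, and Dtx4 (0.94), a Deltex ubiquitin ligase. Without the 3 arrays Bpifb1 and Agr2 had 0.51 and 0.50 with Muc5b, and Agr2 had 0.74 with Scgb3a1. Cyp2f2 was most like Ccdc40, needed for the beat of motile cilia, at 0.93, then Cyp2s1 (0.88), another airway P450, and Ascc2 (0.86).

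Aldh1a1 was most like Slc16a12 (0.97), A4galt (0.96) and Grip1 (0.92), and without the 3 arrays these had 0.94, 0.98 and 0.91. Cbr2 was most like Plin3 (0.88), Epb41l1 (0.88) and Pink1 (0.87). Scgb1a1 was most like Zfp229 (0.97), Calcrl (0.95), a receptor of adrenomedullin, and Ttc3 (0.94). Pigr was most like Mob3a, Slc37a2 and Gm15097, each at 0.96 over 14 arrays but at 0.63, 0.88 and 0.28 in the Atxn1 set. Bpifa1 was most like Tmem196 (0.95), Ffar3 (0.94) and Rgsl1 (0.94), and Scgb3a2 like Olfr1477 (0.92), Pth (0.90) and Saxo2 (0.89). These are the highest of 21212 correlations for each gene over 14 arrays, and how high they run without a link between genes was not tested.

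Of 35 other secretory airway genes measured, 0 passed the adjusted threshold in either knockout. In the Atxn1L knockouts 27 were above 0 and 8 below, where 51.3% of all probe sets were above 0. Their median was 0.05 beside 0.00 over all probe sets. At an unadjusted p under 0.05, 7 were higher and 1 lower (4.54% and 3.95% of all probe sets). Hp stood at 10.66 ± 0.20 against 10.11 ± 0.11 (SD, n = 4 each), a difference of 0.54 (limma adjusted p = 0.192). Gabrp, a GABA receptor subunit of airway epithelium, differed by 0.29 (adjusted p = 0.327). Ltf, which encodes the iron-binding protein lactoferrin of secretions and neutrophil granules, differed by 1.20 (adjusted p = 0.366). Fmo2, a lung flavin monooxygenase, differed by -0.28 (adjusted p = 0.475). Of these, Ltf is also among the 12 neutrophil markers, all of which were above 0 in the Atxn1L knockouts (median 0.86).

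In the Atxn1 knockouts 16 of the 35 were above 0 and 19 below, where 47.3% of all probe sets were above 0. Their median was -0.02 (at an unadjusted p under 0.05, 0.467% of all probe sets were lower and 0.75% higher). Retnla, a resistin-like protein of allergic airways, had 0.35, Chad -0.17 and Tff2 -0.10. All 12 neutrophil markers were below 0 here (median -0.33), with their highest mean on Atxn1 wild type 3.

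Of 23 xenobiotic oxidation enzymes, Cyp2f2, Cbr2 and Aldh1a1 included, 18 were above 0 in the Atxn1L knockouts (median 0.05) and 11 in the Atxn1 knockouts (median -0.01). Over all probe sets the shares above 0 were 51.3% and 47.3%. In the Atxn1L knockouts Fmo1 had -0.33 and Cyp1b1 0.26, and in the Atxn1 knockouts Cyp2e1 had 0.15 and Cyp1a1 -0.22. Of 24 genes of immunoglobulin transport and mucosal defence, Pigr, Bpifa1 and Reg3g included, 16 were above 0 in the Atxn1L knockouts (median 0.03). At an unadjusted p under 0.05, 4 of them were higher (Ltf, Lcn2 at 0.49, Camp at 0.75 and Slpi at 0.34), beside 4.54% of all probe sets. Ltf and Camp are also neutrophil markers. On Atxn1L knockout 1, where all 12 neutrophil markers were highest, Ltf, Lcn2, Camp and Slpi exceeded the other arrays by 2.02, 0.91, 1.63 and 0.73, and the part of that array in their differences was not tested. In the Atxn1 knockouts 7 of the 24 were above 0 (median -0.07). None of these genes passed the adjusted threshold.

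Notch signalling from neighbouring cells directs airway progenitors to the club cell fate. Of 15 genes of that pathway, 10 were above 0 in the Atxn1L knockouts (median 0.06) and 11 in the Atxn1 knockouts (median 0.03), beside 51.3% and 47.3% of all probe sets. The target genes Heyl and Hey1 differed by 0.23 and -0.29 in the Atxn1L knockouts (limma adjusted p = 0.318 and 0.498). Of 17 airway transcription factors, 10 and 14 were above 0 (medians 0.02 and 0.03). The epithelial ETS factors Ehf and Elf3 differed by 0.40 (SE 0.11, adjusted p = 0.388) and 0.25 (SE 0.09, adjusted p = 0.475) in the Atxn1L knockouts. Nkx2-1 differed by 0.08 and Sox2, which marks conducting airways, by -0.14 in the Atxn1 knockouts (adjusted p = 1.000 each).

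Marker lists of other airway and lung cells were read beside these genes as counts above 0 in the Atxn1L and then the Atxn1 knockouts. Over all probe sets the shares above 0 were 51.3% and 47.3%. The counts were 9 and 4 of 12 for ciliated cells, 3 and 4 of 9 for basal cells, 4 and 4 of 9 for neuroendocrine cells and 6 and 3 of 7 for goblet cells. They were 11 and 10 of 12 for pan-epithelial markers, 4 and 8 of 10 for alveolar type 2 cells, and 2 and 8 of 8 for alveolar type 1 cells. Among pan-epithelial markers Krt8 differed by 0.15, Krt18 by 0.17 and Cldn4 by 0.20 in the Atxn1L knockouts, none past the adjusted threshold. For tissues that a dissection can carry along, the counts were 9 and 1 of 15 for cartilage, 3 and 1 of 5 for thyroid, 5 and 2 of 8 for oesophagus, 6 and 1 of 8 for heart muscle and 6 and 7 of 10 for thymus and lymphocytes. They were 11 and 9 of 12 for macrophages and 2 and 5 of 5 for erythroid cells. The macrophage genes Chil3 and Msr1 rose in the Atxn1L knockouts by 1.46 and 0.69 (limma adjusted p = 0.021 and 0.0197), the only genes of these lists past the adjusted threshold in either comparison.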

How the data were processed

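RNA of 14 lungs (100 ng each) was hybridised to Affymetrix mouse Gene ST 1.0 arrays. The authors deposited log2 RMA levels, made separately for the 8 Atxn1L and 6 Atxn1 arrays per the labels, with RMA and limma named in the submitters' processing notes (versions not given in the sources used here). Of the 10 genes, 9 were matched through the platform gene table and Scgb3a2 through its Entrez number in RefSeq.

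Knockouts were set against their own controls by limma 3.58.1 in R 4.3.3 (lmFit, eBayes, no covariate) over 21212 probe sets, two-sided, with Benjamini-Hochberg adjustment at 0.05. Single genes also had exact permutation tests. The number of arrays limits the precision. The fits were tested on simulated data. Genes named were the 10, up to 4 of smallest p per list and comparison, the 3 most correlated probe sets of each, Atxn1, Atxn1l, Cic and Xist; genes singled out on single arrays were chosen after their values were seen. The genes and lists were chosen with earlier results of these data known. Alternatives covered the replicate number, prior, array weights, dim probe sets, centring, loess, joint quantiles, Xist and each array left out. One gene that this rule names is not reported here.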

Additional observations from a re-analysis of the deposited data

Results flagged for a closer look

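Among the 20 groups of 4 arrays tested (10 genes in the Atxn1L knockouts and in their wild types), 3 held an array whose gap to the nearest other array was large against the group's range by Dixon's rule, where chance gives about 1 in 20. Muc5b on Atxn1L knockout 1 was at 8.67 with the other knockouts at 7.50 to 7.64 (gap 0.881 of the range). Bpifa1 on Atxn1L knockout 4 was at 6.26 with the others at 6.60 to 6.65 (0.870), on a dim probe set. Cbr2 on Atxn1L knockout 4 was at 13.49 with the others at 13.58 (0.959). Groups of 3 arrays were not tested in this way, so the high Atxn1 wild type 3 could not be assessed.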

How the results depend on the processing

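None of the 10 genes passed the adjusted threshold under any alternative (lowest adjusted p 0.138, for Scgb3a1, Muc5b, Reg3g and Aldh1a1 in the Atxn1 set with array weights, at -2.27, -0.78, -2.49 and -0.38). Of 526 recomputed differences, 490 kept their direction. The replicate block, the other prior, the filter on dim probe sets and the permutation test leave the difference itself as it was. Their direction could not change, so this count does not measure how stable the directions are. The labels do not say whether arrays sharing a replicate number are pairs. Knockout and wild type of the same number correlated at 0.04 to 0.38 (Atxn1L) and at -0.42 to 0.42 (Atxn1). Low correlations do not exclude pairing, so these values cannot decide it. With a replicate block, 2 probe sets passed for Atxn1L instead of 9, and 1 instead of 2 for the difference between knockouts. With 1 array left out the counts were 2 to 25 and 1 to 2. Array weights gave 1 for Atxn1, and leaving out both high Atxn1L arrays gave 1 for the difference.

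These array weights were 6.38 for Atxn1 wild type 3 and 0.163 for wild type 1. With Xist as covariate Scgb3a1 and Reg3g had -1.56 each in the Atxn1 set (adjusted p = 1.000). With the same covariate Pigr had 0.75 in the Atxn1L set (SE 0.24, limma unadjusted p = 0.0127, adjusted p = 0.335), against 0.60 without it.

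The cause of the changes of sign that follow was not tested. For Reg3g in the Atxn1L set they were -0.43 (array weights), -0.02 (median centring), -0.004 (cyclic loess), -0.04 (joint quantiles) and -0.13 (without both high arrays). For Cbr2 they were -0.001 in the Atxn1L set with median centring and -0.001 in the Atxn1 set with Xist as covariate. Cyp2f2 in the Atxn1 set had 0.02 with array weights and 0.01 with joint quantiles. Scgb3a2 had 0.08 without both high Atxn1L arrays, and the Bpifa1 difference between knockouts 0.15. With 1 array left out, the Atxn1L differences ranged from -0.59 to 0.47 for Reg3g, -0.87 to 0.14 for Scgb3a1, -0.09 to 0.13 for Scgb3a2 and -0.45 to 0.07 for Muc5b. The Atxn1 differences ranged from -0.11 to 0.04 for Scgb1a1, -0.06 to 0.02 for Cyp2f2, -0.01 to 0.05 for Cbr2 and -0.002 to 0.10 for Pigr. The differences between knockouts ranged from -0.02 to 1.40 for Scgb3a1, -0.01 to 0.22 for Scgb3a2, -0.09 to 0.45 for Muc5b, -0.07 to 0.08 for Scgb1a1, -0.02 to 0.03 for Cbr2 and -0.28 to 0.18 for Bpifa1. The correlations ranged from 0.93 to 0.97 (Scgb3a1 with Muc5b), 0.95 to 0.99 (Scgb3a1 with Reg3g) and 0.88 to 0.95 (Muc5b with Reg3g), and without the 3 high arrays, a setting chosen after seeing the data, they were 0.77, 0.84 and 0.52. With 3 or 4 arrays a group, small differences may be missed. The 95% intervals given are not adjusted for the number of probe sets, so they do not mark the smallest difference that could pass. Cic differed by 0.14 in the Atxn1L knockouts with an interval of 0.02 to 0.26, but its limma adjusted p was 0.527. A filter on dim probe sets leaves out Bpifa1 in both sets and Pigr in the Atxn1 set.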
